A study of Homo sapiens with 6 samples.

Results

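The 39 genes described here encode the enzymes of glycolysis, the proteins that carry glucose and lactate or set the flux of the pathway, other targets of the response to low oxygen, and the alpha subunits of the hypoxia-inducible factor (HIF). They were chosen by name among the 58174 genes listed for each sample, and all 39 were found. The choice was made with earlier results of these data known. They fell into 16 glycolytic enzymes, 6 transporters and flux regulators, 15 other hypoxia targets and 2 HIF alpha subunits.

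All 6 samples came from T24, an established cell line grown from a human bladder cancer. The cells carried a short hairpin RNA (shRNA) delivered by a lentiviral pLKO.1 vector, selected with puromycin and kept as a stable population. In the 3 shRNA_UBC9 samples 1 hairpin was directed against UBC9, the conjugating enzyme of sumoylation, which attaches SUMO proteins to other proteins. The 3 shRNA_NC samples carried a scrambled hairpin. The comparison asks what the knockdown did to the transcriptome, and with 1 hairpin an effect of the knockdown and an effect of that hairpin's sequence cannot be told apart. Whether the replicates were separate cultures is not stated, so the p-values measure only the spread between these samples, which may be technical. RNA was sequenced from bulk cells, where fewer cells of a kind and less RNA per cell cannot be told apart.

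Glycolysis splits glucose into pyruvate, and lactate dehydrogenase turns pyruvate into lactate, which leaves the cell through monocarboxylate transporters. When oxygen is scarce the HIF alpha subunits escape hydroxylation by the prolyl hydroxylases of the EGLN family, pair with ARNT and bind hypoxia response elements near their target genes. Many genes of glycolysis are such targets, and so are genes of other functions, such as mitophagy, pH control and collagen modification. In tumours this programme is known for favouring lactate production.

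The letters of the core of the hypoxia response element, ACGTG or GCGTG, were searched on both strands in RefSeq promoter windows of 300 bases, 250 before and 50 after each annotated start (GRCh38.p14). On the other strand these cores read CACGT and CACGC, and a CACGTG counts at both of its overlapping positions. Of the 39 genes, 35 had at least 1 window, and SLC2A3, NDRG1, BNIP3L and HILPDA had none. The core was found in 47 of 68 windows (69.1%), against 48.4% of the windows of all genes and 61.5% of those of the genes tested. It was found in 61.1% of the 36 windows of glycolytic enzymes, 72.7% of the 11 of transporters and flux regulators and 83.3% of the 18 of other hypoxia targets. These shares count windows and not genes, because some genes have several windows, which can overlap and hold the same match. By gene, every glycolytic enzyme but PGAM1 had the core in at least 1 window. So did every other hypoxia target with a window but EGLN3 and P4HA2, so the shares do not rank the lists. A match describes letters and not a bound site. Below are 25 bases around each match of PFKFB4, ENO2, P4HA1 and EPAS1, which were higher in shRNA_UBC9, of ADM, whose samples split, and of TPI1, which was lower. They are written 5′ to 3′ on the strand of the gene, with the core in capitals.
PFKFB4: agttgggcatGCGTGgtcggaggcc
ENO2: ccgcgctcgtACGTGcgcctccgcc
P4HA1: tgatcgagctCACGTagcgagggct
EPAS1: gcctgccggcGCGTGcccgcccaca
ADM: gcaggagcgcGCGTGgctgaggaaa
TPI1 first match: aggctgggccGCGTGggcttcccgc
TPI1 second match: tgcgccgccgCACGTagccccagac

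The PFKFB4 stretch lies at chr3:48556955-48556979 on the minus strand, with its core 166 bases before the annotated start, in an intron of longer PFKFB4 transcripts (GENCODE release 44). That of ENO2 lies at chr12:6914452-6914476 on the plus strand, with the core 118 bases before the start, inside an exon of another ENO2 transcript. For P4HA1 it is chr10:73096938-73096962 on the minus strand, 86 bases before the start and inside an exon of another P4HA1 transcript. For EPAS1 it is chr2:46297280-46297304 on the plus strand, 117 bases before the start and in an intron of longer transcripts. The ADM stretch is chr11:10304962-10304986 on the plus strand, 101 bases before the start and outside the gene. TPI1 has 2 windows, and both matches are in the downstream one, at chr12:6868027-6868051 in an intron and at chr12:6868078-6868102 overlapping an exon, both on the plus strand. The core was thus found beside genes that were higher and beside a gene that was lower.

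Expression is given as RPKM, reads scaled to the length of the gene and to all mapped reads of the sample. No read counts were analysed here and the absolute depth is unknown. The depth of the samples relative to shRNA_NC replicate 1 was between 0.945 and 1.21, and the ranges of the groups overlapped. Of 5 epithelial markers tested, 4 were lower in shRNA_UBC9. The other, EPCAM, was not called, with a log2 fold change of 0.996 (adjusted p = 0.0984). The list of epithelial markers summed to 938 to 1108 RPKM in shRNA_NC and 426 to 563 in shRNA_UBC9. CDH1 was listed at 0 in 5 of the 6 samples and at 0.00449 RPKM in shRNA_UBC9 replicate 1. Of 7 urothelial markers, 5 stayed under 0.5 RPKM in every sample and the other 2 were lower in shRNA_UBC9, PPARG by a log2 fold change of -2.15 (adjusted p = 0.00169) and GATA3 by -0.79 (adjusted p = 0.016), and the list summed to 22.9 to 30.1 RPKM in shRNA_NC and 6.502 to 11.2 in shRNA_UBC9. The lists of leukocyte and fibroblast markers summed to at most 1.76 RPKM. That of endothelial markers summed to 2.64 to 3.26 RPKM in shRNA_NC and 0.338 to 1.07 in shRNA_UBC9, and its 1 gene tested, CDH5, was lower by a log2 fold change of -2.20 (adjusted p = 0.00288). The share of RPKM from ribosomal protein genes was 8.86% to 9.70% in shRNA_NC and 7.09% to 7.35% in shRNA_UBC9, and that of mitochondrial genes was 8.28% to 8.76% and 6.83% to 7.16%. The part of these differences in the results below was not tested.

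The test was made on log2(RPKM + 0.1) for 12428 genes with 0.5 RPKM or more in 3 or more samples, among them 36 of the 39. CA9, CA12 and EGLN3 were too low. Fold changes are given on this log2 scale, where the pseudocount shrinks those of weakly expressed genes. Genes with an adjusted p below 0.05 are called higher or lower, and those with an absolute log2 fold change above 1 as well are called DEGs. With all 6 samples 16 of the 36 genes were higher in shRNA_UBC9, where 18.8% of all genes tested were higher, and 1 was lower, where 18.0% were. DEGs were 2 of the 36, PFKFB4 and NDRG1, both higher, where 5.20% of all genes tested were DEGs higher and 2.70% DEGs lower. The median log2 fold change of the 36 genes was 0.43, against 0.00 for all genes tested. In 19 of the 36 genes all shRNA_UBC9 samples lay above all shRNA_NC samples (25.7% of all genes tested), and in 1 all lay below (25.4%). The count of higher genes was 7 without shRNA_NC replicate 1, 10 without shRNA_NC replicate 2 and 6 without shRNA_NC replicate 3. Calls over all genes tested, higher and lower together, also fell in these fits, from 4576 to 3549, 3869 and 3034. Without shRNA_UBC9 replicate 2 the calls over all genes numbered 3239, and 5 of the 36 genes lost their call. The count of higher genes thus depended on single samples of both groups.

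The sample shRNA_UBC9 replicate 1 stood apart for these genes. It was the highest of the 6 samples in 27 of the 36 genes tested, against 22.0% of all genes tested. Measured as the log2 difference from the mean of the other shRNA_UBC9 replicates, its median was 1.08 over the 12 other hypoxia targets tested, 1.004 over the 6 transporters and flux regulators and 0.11 over the 16 glycolytic enzymes. It lay above both other replicates in 12 of 12, 6 of 6 and 10 of 16 genes of these lists. Over all genes tested the median was -0.02, and 36.4% of them lay above both. The departure was large in the hypoxia targets outside the glycolytic chain, and within the chain it was large in a few genes, with the RPKM of HK2 at 2.16, LDHA at 1.91, ENO2 at 1.79 and PGK1 at 1.47 times the mean of the other shRNA_UBC9 replicates. The fold changes of the 36 genes are given with and without this sample. Because it departed in these same genes, the p-values of the fit without it do not measure the spread that it adds. The words higher and lower for that fit describe the remaining samples only.

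**Figure D1:**
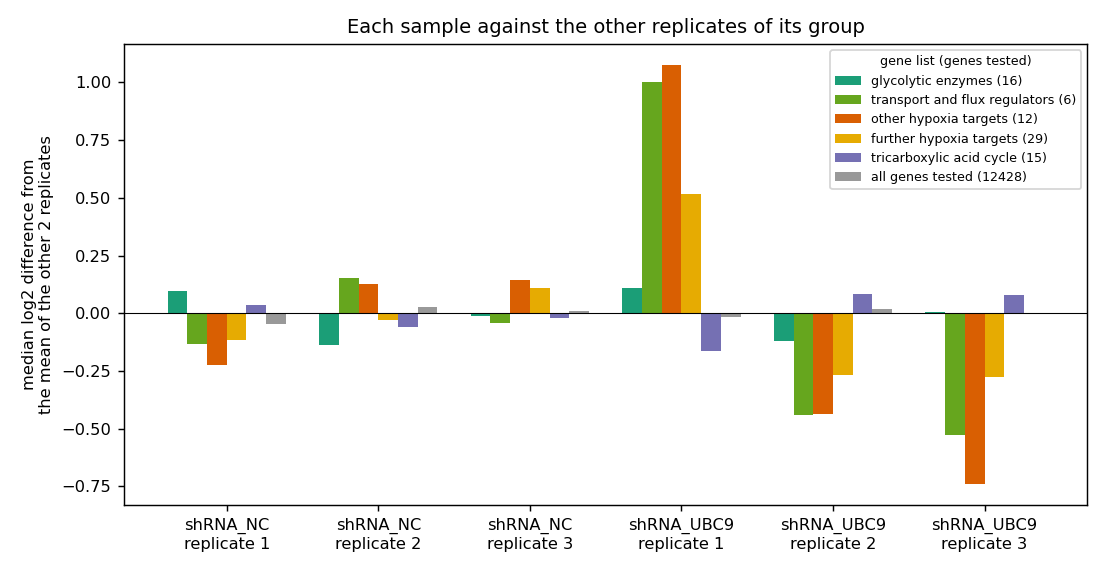
Median log2 difference of each sample from the mean of the other replicates of its group (y axis), by sample (x axis), with 1 bar per gene list and the number of genes tested in the key. The bars of shRNA_UBC9 replicate 1 reach 1.004 for transporters and flux regulators and 1.08 for other hypoxia targets, while that of the glycolytic enzymes is 0.11.

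Without shRNA_UBC9 replicate 1, 15 of the 36 genes were higher (17.5% of all genes tested) and 5 were lower (16.1%). NDRG1 was the 1 DEG left (4.86% of all genes tested were DEGs higher and 2.64% DEGs lower). The median log2 fold change was 0.27. Calls changed for 11 genes. PFKP, ALDOC, PDK1 and EGLN1 were no longer called higher, PFKFB3, BNIP3 and HILPDA became higher, and LDHA, ADM, BNIP3L and P4HA2 became lower.

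**Figure D2:**
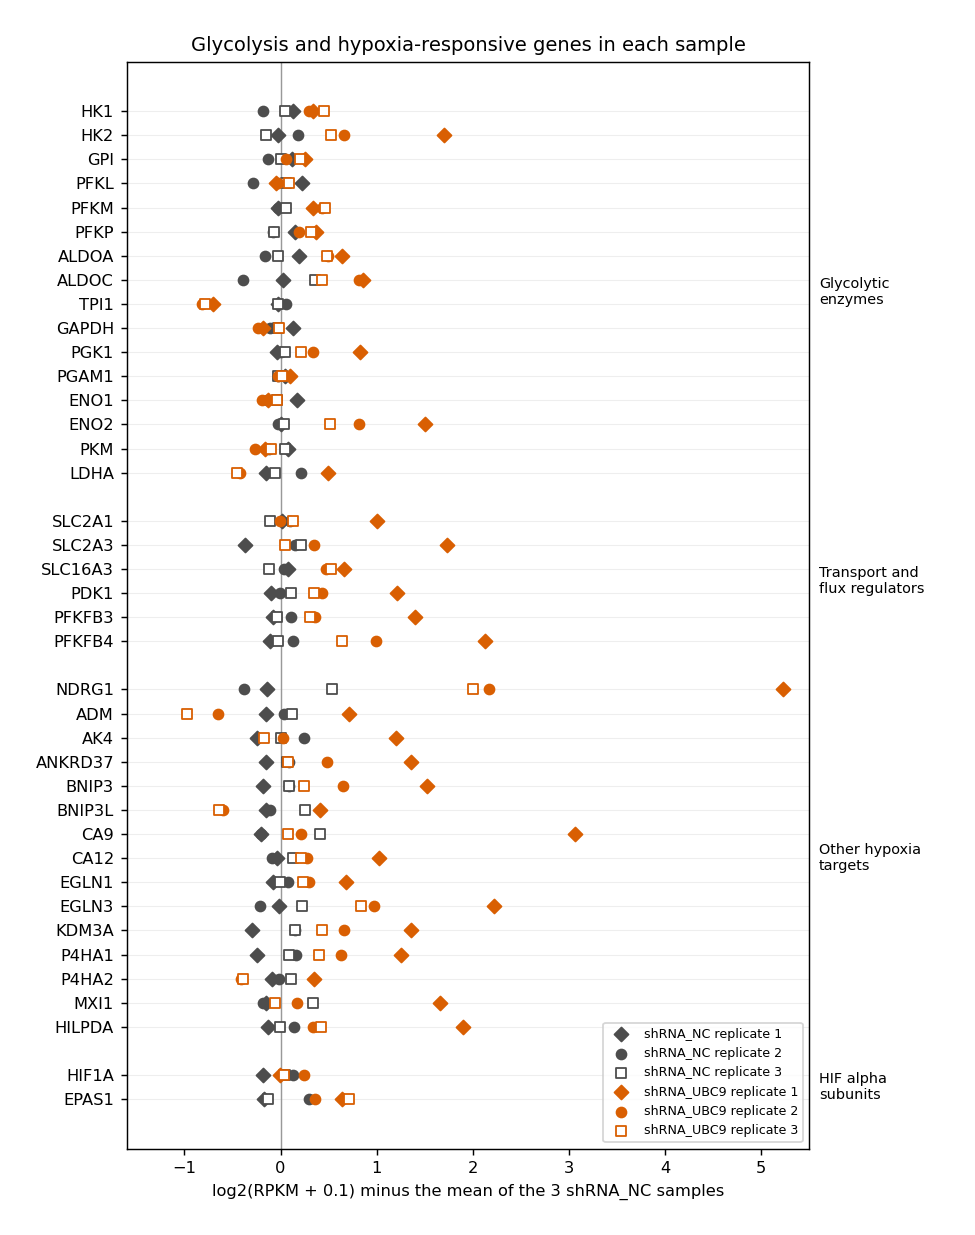
Each of the 39 genes (y axis, by list) in each of the 6 samples, as log2(RPKM + 0.1) minus the mean of the shRNA_NC samples (x axis), with symbols for the group and replicate. The orange diamonds of shRNA_UBC9 replicate 1 lie to the right of the other orange symbols for all 15 other hypoxia targets, up to NDRG1, while TPI1 lies to the left of 0 in all 3 shRNA_UBC9 samples.

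Among the 16 glycolytic enzymes, 8 were higher (18.8% of all genes tested), 1 was lower (18.0%) and 7 were not called. Their median log2 fold change was 0.23. Those higher were HK1, HK2, PFKM, PFKP, ALDOA, ALDOC, PGK1 and ENO2, and TPI1 was lower. Without shRNA_UBC9 replicate 1 there were 6 higher (17.5% of all genes tested) and 2 lower, TPI1 and LDHA (16.1%), with a median of 0.19. The most abundant enzymes in RPKM, GAPDH, ENO1 and PKM, were not called in either fit. The summed RPKM of the 16 enzymes was 4775 to 5352 in shRNA_NC and 4385 to 4926 in shRNA_UBC9, and the ranges overlapped. The count of 8 became 5 without shRNA_NC replicate 1 or without shRNA_UBC9 replicate 2 and 4 without shRNA_NC replicate 2 or 3.

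The first step, the phosphorylation of glucose, is catalysed by hexokinases. HK1, the widely expressed form, stood at 48.0, 38.8 and 45.4 RPKM in shRNA_NC and 55.4, 53.8 and 60.2 RPKM in shRNA_UBC9, a log2 fold change of 0.36 (SE 0.10, adjusted p = 0.025), and 0.38 (adjusted p = 0.0365) without shRNA_UBC9 replicate 1. HK2, the inducible form that is prominent in tumours, stood at 12.1, 14.0 and 11.1 RPKM in shRNA_NC and 40.2, 19.6 and 17.8 RPKM in shRNA_UBC9. Both genes were higher in every shRNA_UBC9 sample than in any shRNA_NC sample, HK1 by a like amount in each and HK2 mostly in replicate 1. The log2 fold change of HK2 was 0.96 (SE 0.28, adjusted p = 0.0274) with all samples and 0.59 (SE 0.12, adjusted p = 0.00724) without that replicate. HK2 made up 42.1% of the summed RPKM of HK1 and HK2 in shRNA_UBC9 replicate 1, 26.6% and 22.8% in the other replicates and 19.6% to 26.6% in shRNA_NC. The HK1 call was lost without shRNA_NC replicate 2 or 3 or shRNA_UBC9 replicate 3, with adjusted p up to 0.0728, and the HK2 call without shRNA_NC replicate 1 or 3, with adjusted p up to 0.0885.

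GPI, which turns glucose 6-phosphate into fructose 6-phosphate, had a log2 fold change of 0.17 (adjusted p = 0.205), and 0.13 (adjusted p = 0.368) without shRNA_UBC9 replicate 1. The next step is made by phosphofructokinase, the main point of control of the pathway. PFKM, its muscle-type subunit, stood at 8.73, 8.68 and 9.21 RPKM in shRNA_NC and 11.2, 12.0 and 12.3 RPKM in shRNA_UBC9. PFKM rose by a log2 fold change of 0.41 (SE 0.08, adjusted p = 0.0062), and by 0.45 (adjusted p = 0.00657) without shRNA_UBC9 replicate 1, its lowest shRNA_UBC9 sample. PFKP, the platelet type and the most abundant of the subunits, stood at 58.7, 50.2 and 50.6 RPKM in shRNA_NC and 68.7, 60.6 and 65.9 RPKM in shRNA_UBC9. Its log2 fold change was 0.29 (SE 0.09, adjusted p = 0.0417), and the call was lost without shRNA_UBC9 replicate 1 (0.25, adjusted p = 0.0891) and without each other sample except shRNA_NC replicate 1. PFKL, the liver type, had a log2 fold change of 0.00 (adjusted p = 0.989), and 0.03 (adjusted p = 0.899) without shRNA_UBC9 replicate 1, and its groups overlapped.

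Aldolase cleaves fructose 1,6-bisphosphate. ALDOA, the main aldolase of these cells, stood at 198, 155 and 170 RPKM in shRNA_NC and 270, 243 and 243 RPKM in shRNA_UBC9, a mean of 174 ± 22.1 against 252 ± 15.3 (SD, n = 3). ALDOC stood at 4.73, 3.50 and 5.97 RPKM in shRNA_NC and 8.45, 8.20 and 6.26 RPKM in shRNA_UBC9. For both genes the groups did not overlap, though ALDOC in shRNA_UBC9 replicate 3 was close to its highest control sample. ALDOA rose by a log2 fold change of 0.54 (SE 0.11, adjusted p = 0.00597), and by 0.49 (adjusted p = 0.0148) without shRNA_UBC9 replicate 1. The value of ALDOC was 0.70 (SE 0.20, adjusted p = 0.0245), and 0.62 (adjusted p = 0.0576) without that replicate. Its call was also lost without shRNA_NC replicate 1 or 2 or shRNA_UBC9 replicate 2.

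TPI1, triosephosphate isomerase, interconverts the products of aldolase and is encoded at chr12:6867119-6870948 on the plus strand. It stood at 432, 455 and 429 RPKM in shRNA_NC and 268, 248 and 254 RPKM in shRNA_UBC9, a mean of 439 ± 14.4 against 257 ± 10.4 (SD, n = 3). All shRNA_UBC9 samples were lower than all shRNA_NC samples and close to one another, replicate 1 included. TPI1 fell by 0.77 on the log2 scale (SE 0.08, adjusted p = 3.00e-04), and by 0.80 (adjusted p = 5.15e-04) without shRNA_UBC9 replicate 1. It was the only glycolytic enzyme called lower with all samples. The ratio of TPI1 to ALDOA RPKM was 2.18, 2.94 and 2.52 in shRNA_NC and 0.995, 1.02 and 1.04 in shRNA_UBC9. In the controls TPI1 was the more abundant, and in shRNA_UBC9 the levels were nearly equal. The ratio of TPI1 to GAPDH was 0.185 to 0.230 in shRNA_NC and 0.120 to 0.143 in shRNA_UBC9. The 4 TPI1 pseudogenes in the files were listed at 0. How reads that map to several places were handled is not stated, so the level of TPI1 is uncertain.

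**Figure D3:**
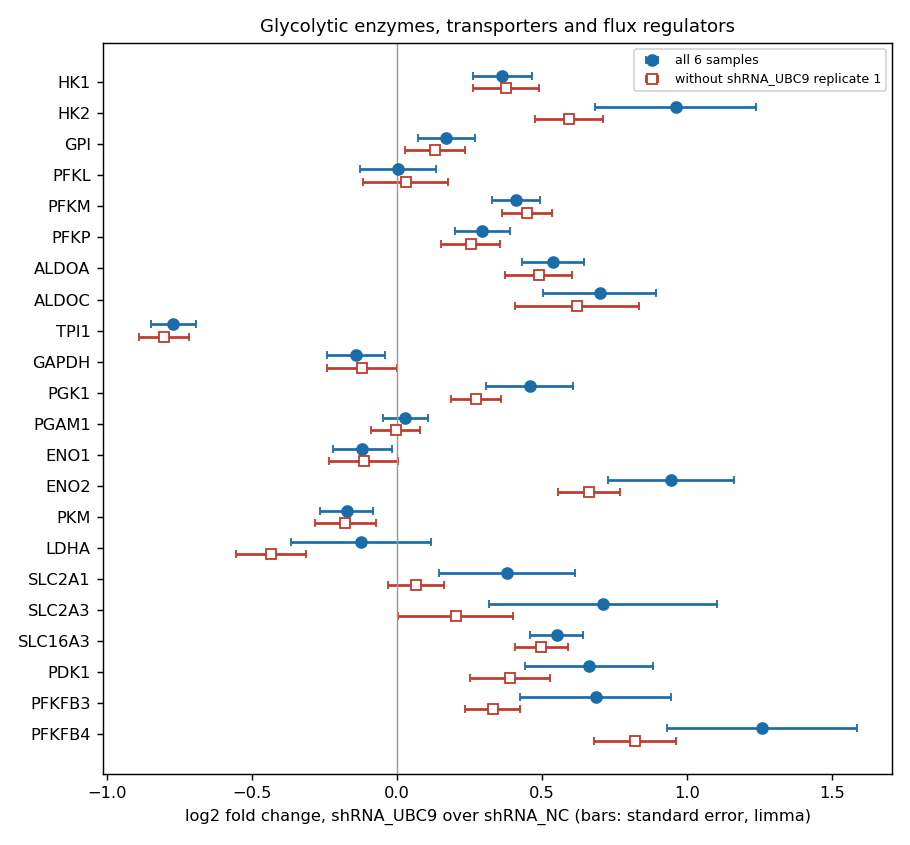
Log2 fold change of shRNA_UBC9 over shRNA_NC (x axis; bars are the standard error from limma) for the 16 glycolytic enzymes in the order of the pathway, then the 6 transporters and flux regulators, with all 6 samples (filled circles) and without shRNA_UBC9 replicate 1 (open squares). TPI1 lies at -0.77 and -0.80, and the symbols part most for genes such as SLC2A3, PFKFB4, HK2 and PFKFB3.

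The lower part of the pathway begins with GAPDH, which stood at 1977 to 2332 RPKM in shRNA_NC and 1812 to 2108 RPKM in shRNA_UBC9, with a log2 fold change of -0.14 (adjusted p = 0.296), and -0.12 (adjusted p = 0.466) without shRNA_UBC9 replicate 1. The files list 62 GAPDH pseudogenes, all at 0, and how reads that map to several places were handled is not stated, so its level is uncertain. PGK1, phosphoglycerate kinase, makes the first ATP of the pathway. It stood at 147, 151 and 156 RPKM in shRNA_NC and 268, 191 and 175 RPKM in shRNA_UBC9. Every shRNA_UBC9 sample was above every control, with replicate 1 highest. Its log2 fold change was 0.46 (SE 0.15, adjusted p = 0.0431) and 0.27 (adjusted p = 0.0434) without that replicate, and the call was lost without any 1 shRNA_NC sample or without shRNA_UBC9 replicate 2. PGAM1, phosphoglycerate mutase, had a log2 fold change of 0.03 (adjusted p = 0.802), and -0.01 (adjusted p = 0.968) without that replicate, and overlapping groups.

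Enolase makes phosphoenolpyruvate. ENO1, the ubiquitous form, had a log2 fold change of -0.12 (adjusted p = 0.386), and -0.12 (adjusted p = 0.49) without shRNA_UBC9 replicate 1. ENO2, the form best known from neurons, is encoded at chr12:6913745-6923698 and stood at 12.8, 12.6 and 13.1 RPKM in shRNA_NC and 36.6, 22.6 and 18.4 RPKM in shRNA_UBC9. The controls were nearly equal and every shRNA_UBC9 sample was above them. ENO2 rose by a log2 fold change of 0.94 (SE 0.22, adjusted p = 0.0111), and by 0.66 (SE 0.11, adjusted p = 0.0031) without shRNA_UBC9 replicate 1. Its share of the summed RPKM of ENO1 and ENO2 was 1.38%, 1.67% and 1.62% in shRNA_NC and 4.68%, 3.07% and 2.26% in shRNA_UBC9, so ENO1 remained by far the main enolase. PKM, pyruvate kinase, had a log2 fold change of -0.17 (adjusted p = 0.166), and -0.18 (adjusted p = 0.222) without shRNA_UBC9 replicate 1.

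LDHA, the lactate dehydrogenase subunit that favours lactate formation, stood at 293, 378 and 312 RPKM in shRNA_NC and 460, 244 and 238 RPKM in shRNA_UBC9. The shRNA_UBC9 samples lay on both sides of the controls, with replicate 1 above all and the other replicates below all. With all samples the log2 fold change was -0.12 (SE 0.24, adjusted p = 0.713). Without shRNA_UBC9 replicate 1 LDHA fell by 0.44 on the log2 scale (SE 0.12, adjusted p = 0.0264). LDHA made up 64.0% of the summed RPKM of LDHA and LDHB in shRNA_UBC9 replicate 1, 49.3% and 48.2% in the other replicates and 52.9% to 55.1% in shRNA_NC.

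Of the 6 transporters and flux regulators, SLC16A3, PDK1 and PFKFB4 were higher (18.8% of all genes tested). None was lower in limma (0 also at an unadjusted p below 0.05), where 18.0% of all genes tested were. The median log2 fold change of the list was 0.67. Without shRNA_UBC9 replicate 1, 3 were higher, SLC16A3, PFKFB3 and PFKFB4 (17.5% of all genes tested), and the median was 0.36. The count was 1 without shRNA_NC replicate 1 or 3. SLC16A3 encodes MCT4, which exports lactate, and stood at 69.5, 67.5 and 60.7 RPKM in shRNA_NC and 104, 91.3 and 94.5 RPKM in shRNA_UBC9, a mean of 65.9 ± 4.63 against 96.5 ± 6.43 (SD, n = 3). Every shRNA_UBC9 sample was above every control by a similar amount. SLC16A3 rose by a log2 fold change of 0.55 (SE 0.09, adjusted p = 0.00263), and by 0.50 (adjusted p = 0.0055) without shRNA_UBC9 replicate 1.

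The glucose importers were not called in either fit. SLC2A1 encodes GLUT1 and stood at 44.2, 46.7 and 40.5 RPKM in shRNA_NC and 88.0, 43.7 and 47.9 RPKM in shRNA_UBC9. SLC2A3 encodes GLUT3, a carrier of high affinity, and stood at 1.64, 2.41 and 2.52 RPKM in shRNA_NC and 7.38, 2.78 and 2.23 RPKM in shRNA_UBC9. For both, shRNA_UBC9 replicate 1 stood alone and the other replicates lay among or next to the controls. The log2 fold change of SLC2A1 was 0.38 (adjusted p = 0.241) with all samples and 0.06 (adjusted p = 0.643) without that replicate. That of SLC2A3 was 0.71 (adjusted p = 0.191) and 0.20 (adjusted p = 0.469).

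PFKFB3 and PFKFB4 make and remove fructose 2,6-bisphosphate, the main activator of phosphofructokinase. PFKFB4 stood at 2.11, 2.50 and 2.24 RPKM in shRNA_NC and 10.3, 4.64 and 3.61 RPKM in shRNA_UBC9. PFKFB3 stood at 10.4, 11.9 and 10.7 RPKM in shRNA_NC and 29.1, 14.1 and 13.6 RPKM in shRNA_UBC9. Both genes were above the controls in every shRNA_UBC9 sample and highest in replicate 1. PFKFB4 rose by a log2 fold change of 1.26 (SE 0.33, adjusted p = 0.0184), a DEG, and by 0.82 (SE 0.14, adjusted p = 0.00409) without that replicate, when it was no longer a DEG. Its call was lost without shRNA_NC replicate 1 or 3, with adjusted p up to 0.0624. The value of PFKFB3 was 0.68 (adjusted p = 0.0721), and it rose by 0.33 (adjusted p = 0.0311) without replicate 1. PDK1, a kinase that shuts off pyruvate dehydrogenase, stood at 1.29, 1.39 and 1.501 RPKM in shRNA_NC and 3.34, 1.92 and 1.79 RPKM in shRNA_UBC9. Its groups did not overlap, and its log2 fold change was 0.66 (SE 0.22, adjusted p = 0.0465). The PDK1 call was lost without shRNA_UBC9 replicate 1 (0.39, adjusted p = 0.0622) and without each other sample except shRNA_UBC9 replicate 3.

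Of the 15 other hypoxia targets, 12 were tested. NDRG1, EGLN1, KDM3A and P4HA1 were higher (18.8% of all genes tested) and none was lower (18.0%), with a median log2 fold change of 0.62. Without shRNA_UBC9 replicate 1, 5 were higher (NDRG1, BNIP3, KDM3A, P4HA1 and HILPDA) and 3 were lower (ADM, BNIP3L and P4HA2). Of all genes tested 17.5% were then higher and 16.1% lower. The median of the list was 0.27. In limma with all 6 samples no gene of the list was lower at an adjusted p below 0.05, and 0 were at an unadjusted p below 0.05. The count of 4 was 1 without shRNA_NC replicate 1 or 3. The glycolytic enzymes had 8 of 16 higher with all samples and 6 of 16 without shRNA_UBC9 replicate 1, and the difference between the lists was not tested.

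**Figure D4:**
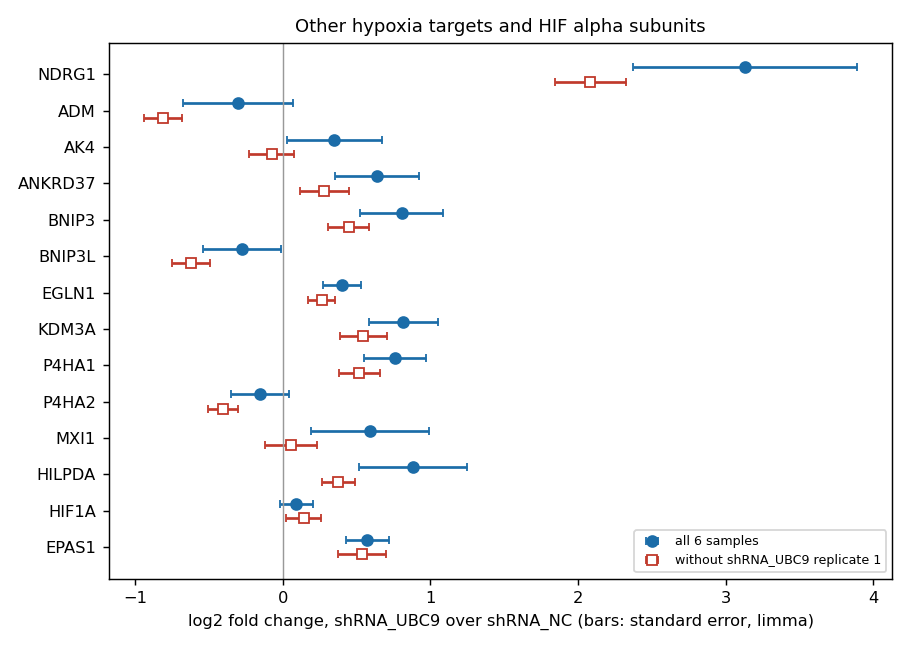
Log2 fold change of shRNA_UBC9 over shRNA_NC (x axis; bars are the standard error from limma) for the 12 other hypoxia targets tested and the 2 HIF alpha subunits, with all 6 samples (filled circles) and without shRNA_UBC9 replicate 1 (open squares). The open squares lie to the left of the circles for all 12 targets, with NDRG1 moving from 3.13 to 2.08 and ADM from -0.30 to -0.81.

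NDRG1, a stress-responsive gene and one of the most widely used markers of hypoxia, stood at 2.16, 1.81 and 3.50 RPKM in shRNA_NC and 93.2, 11.1 and 9.90 RPKM in shRNA_UBC9. Every shRNA_UBC9 sample was above every control, and replicate 1 was 8.88 times the mean of the other shRNA_UBC9 replicates. NDRG1 rose by a log2 fold change of 3.13 (SE 0.76, adjusted p = 0.0137), and by 2.08 (SE 0.24, adjusted p = 7.24e-04) without replicate 1. It was a DEG in both fits.

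P4HA1 and P4HA2 encode the catalytic subunits of collagen prolyl 4-hydroxylase. P4HA1 stood at 23.4, 31.1 and 29.6 RPKM in shRNA_NC and 66.4, 43.2 and 36.8 RPKM in shRNA_UBC9, and rose by a log2 fold change of 0.76 (SE 0.21, adjusted p = 0.0229), or 0.52 (adjusted p = 0.0234) without shRNA_UBC9 replicate 1. P4HA2 stood at 5.14, 5.38 and 5.87 RPKM in shRNA_NC and 6.98, 4.08 and 4.13 RPKM in shRNA_UBC9. P4HA1 was above the controls in every shRNA_UBC9 sample, whereas P4HA2 was above them in replicate 1 and below them in the other replicates. The log2 fold change of P4HA2 was -0.15 (adjusted p = 0.571), and it fell by 0.40 (adjusted p = 0.0188) without replicate 1. The P4HA1 call was lost without shRNA_NC replicate 1 or 3, with adjusted p up to 0.0822.

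KDM3A, a histone H3 lysine 9 demethylase, stood at 2.79, 3.81 and 3.82 RPKM in shRNA_NC and 8.96, 5.51 and 4.66 RPKM in shRNA_UBC9. It rose by a log2 fold change of 0.82 (SE 0.23, adjusted p = 0.0266), and by 0.55 (adjusted p = 0.0327) without shRNA_UBC9 replicate 1. Its groups did not overlap, and its call was lost without shRNA_NC replicate 1 or 3, with adjusted p up to 0.0927. EGLN1, the main oxygen-sensing hydroxylase of the HIF alpha subunits, stood at 9.34, 10.4 and 9.79 RPKM in shRNA_NC and 15.8, 12.1 and 11.6 RPKM in shRNA_UBC9. EGLN1 was above the controls in every shRNA_UBC9 sample, with a log2 fold change of 0.40 (SE 0.13, adjusted p = 0.0379). The call was lost without shRNA_UBC9 replicate 1 (0.26, adjusted p = 0.0581) and without each other sample except shRNA_UBC9 replicate 3.

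BNIP3 and BNIP3L encode related receptors of mitophagy. BNIP3 stood at 15.7, 19.0 and 18.9 RPKM in shRNA_NC and 51.4, 27.9 and 21.1 RPKM in shRNA_UBC9. BNIP3L stood at 19.7, 20.3 and 26.0 RPKM in shRNA_NC and 29.1, 14.4 and 13.9 RPKM in shRNA_UBC9. BNIP3 was above the controls in every shRNA_UBC9 sample, while BNIP3L was above them in replicate 1 and below them in the others. The log2 fold change of BNIP3 was 0.81 (SE 0.28, adjusted p = 0.0526), and it rose by 0.45 (adjusted p = 0.0428) without replicate 1. That of BNIP3L was -0.28 (adjusted p = 0.446), and it fell by 0.62 (adjusted p = 0.00879) without replicate 1. The BNIP3 pseudogenes in the files summed to at most 1.43 RPKM, 6.05% of BNIP3.

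ADM encodes adrenomedullin, a vasodilator peptide, and stood at 9.28, 10.5 and 11.1 RPKM in shRNA_NC and 16.9, 6.53 and 5.20 RPKM in shRNA_UBC9. Like LDHA, P4HA2 and BNIP3L, it was above the controls in shRNA_UBC9 replicate 1 and below them in the other replicates. Its log2 fold change was -0.30 (SE 0.37, adjusted p = 0.552) with all samples, and ADM fell by 0.81 (SE 0.13, adjusted p = 0.00281) without replicate 1. HILPDA, which promotes lipid droplets, stood at 4.32, 5.23 and 4.71 RPKM in shRNA_NC and 17.9, 6.01 and 6.37 RPKM in shRNA_UBC9. HILPDA was above the controls in every shRNA_UBC9 sample. Its log2 fold change was 0.88 (adjusted p = 0.0914), and it rose by 0.38 (adjusted p = 0.0335) without replicate 1.

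**Figure D5:**
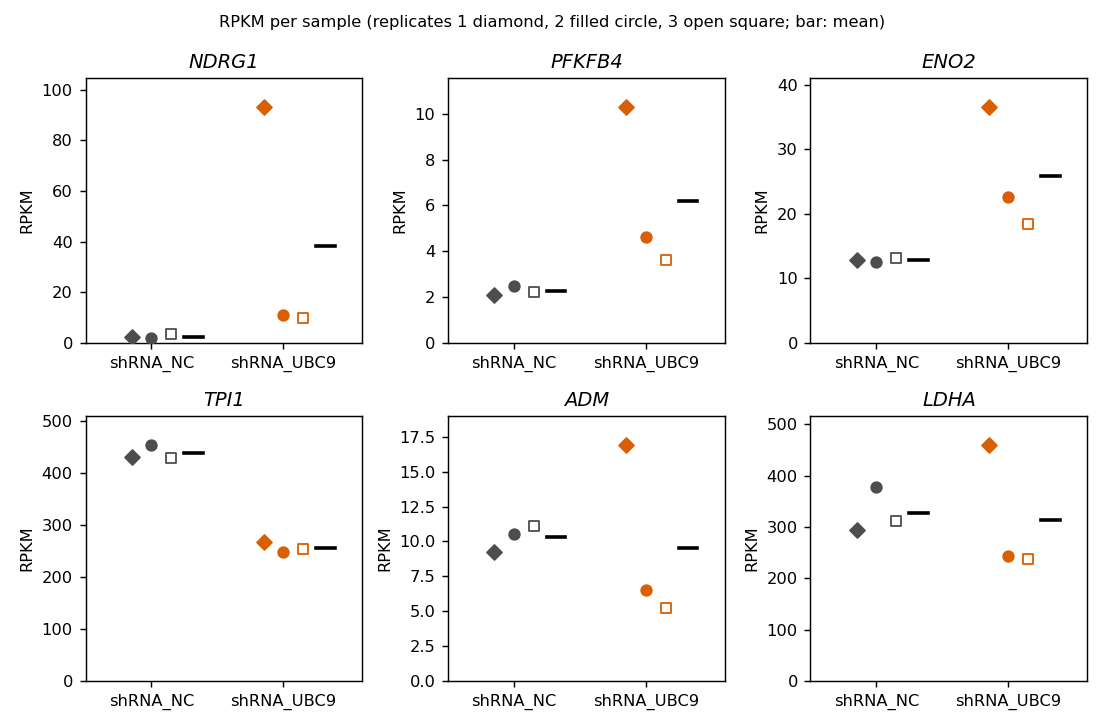
RPKM (y axis, linear from 0) of NDRG1, PFKFB4, ENO2, TPI1, ADM and LDHA in each shRNA_NC (grey) and shRNA_UBC9 (orange) sample, with a bar at the group mean. NDRG1, PFKFB4 and ENO2 are above the controls in all 3 shRNA_UBC9 samples and TPI1 below, while for ADM and LDHA replicate 1 (orange diamond) is above the controls and the other replicates are below.

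AK4, MXI1 and ANKRD37 were not called in either fit. AK4, a mitochondrial adenylate kinase, stood at 4.81, 6.81 and 5.76 RPKM in shRNA_NC and 13.3, 5.84 and 5.07 RPKM in shRNA_UBC9. MXI1, an antagonist of MYC, stood at 2.44, 2.39 and 3.47 RPKM in shRNA_NC and 8.85, 3.09 and 2.61 RPKM in shRNA_UBC9. ANKRD37 had a log2 fold change of 0.64 (adjusted p = 0.112) and 0.28 (adjusted p = 0.22) without shRNA_UBC9 replicate 1. For AK4 and MXI1 the high value was that of replicate 1 alone, and their log2 fold changes went from 0.35 (adjusted p = 0.427) to -0.08 (adjusted p = 0.731) and from 0.59 (adjusted p = 0.282) to 0.06 (adjusted p = 0.836) without it.

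The genes below the filter were also highest in shRNA_UBC9 replicate 1. CA9, carbonic anhydrase 9, a classic marker of hypoxia that controls pH at the cell surface, was listed at 0, 0 and 0.0531 RPKM in shRNA_NC and at 0.864, 0.034 and 0.0212 RPKM in shRNA_UBC9. CA12, a related enzyme, stood at 0.179, 0.170 and 0.214 RPKM in shRNA_NC and 0.482, 0.248 and 0.233 RPKM in shRNA_UBC9. EGLN3, a HIF prolyl hydroxylase that is itself a HIF target, stood at 0.0455, 0.0275 and 0.0723 RPKM in shRNA_NC and 0.584, 0.189 and 0.164 RPKM in shRNA_UBC9. The groups did not overlap for CA12 and EGLN3 and overlapped for CA9, and no test was made at these levels.

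Of the HIF alpha subunits, HIF1A stood at 42.2, 52.5 and 49.5 RPKM in shRNA_NC and 47.5, 56.9 and 49.1 RPKM in shRNA_UBC9. EPAS1, which encodes HIF-2 alpha, stood at 14.0, 19.3 and 14.4 RPKM in shRNA_NC and 24.6, 20.2 and 25.8 RPKM in shRNA_UBC9. The groups overlapped for HIF1A and not for EPAS1, and shRNA_UBC9 replicate 1 was the highest sample for neither. HIF1A had a log2 fold change of 0.09 (adjusted p = 0.548), and 0.14 (adjusted p = 0.389) without shRNA_UBC9 replicate 1. EPAS1 rose by a log2 fold change of 0.57 (SE 0.15, adjusted p = 0.0175), and by 0.54 (adjusted p = 0.0381) without shRNA_UBC9 replicate 1. The EPAS1 call was lost without shRNA_NC replicate 1 or 3, with adjusted p up to 0.0691. HIF alpha is set mainly by protein stability, which RNA does not measure.

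Lists of neighbouring genes gave the setting. Those named in it that were not DEGs were chosen after their values were seen, because they passed the test. Of all genes tested 18.8% were higher and 18.0% lower. The counts of the HIF regulators lay near these shares, as did those of lower genes in the tricarboxylic acid cycle and the pentose phosphate pathway, so they are no result about these lists. Of 14 tested regulators of the HIF pathway, EGLN2 and ELOC were higher, and ARNT, CREBBP and EP300 were lower. ARNT, the partner of the alpha subunits, stood at 7.51, 7.77 and 7.81 RPKM in shRNA_NC and 6.19, 5.23 and 5.65 RPKM in shRNA_UBC9, and fell by 0.43 on the log2 scale (adjusted p = 0.00799), or 0.49 (adjusted p = 0.00547) without shRNA_UBC9 replicate 1. Of 8 tested further isozymes and lactate genes, ENO3, SLC16A1 and PGM1 were higher and none was lower in limma (0 also at an unadjusted p below 0.05). Of 11 genes of the pyruvate dehydrogenase complex and its regulators PDK2 was lower. Of 7 genes of the pentose phosphate pathway TKT was lower. Of 15 tested genes of the tricarboxylic acid cycle SDHB was higher and IDH3B, FH and SUCLA2 were lower, and SDHD was not analysed here. With shRNA_UBC9 replicate 1 left out, CREBBP (adjusted p = 0.0845), EP300 (adjusted p = 0.0736) and SLC16A1 (adjusted p = 0.05004) were no longer called, while CUL2 and IDH3G became higher and CITED2 lower. In the cycle shRNA_UBC9 replicate 1 lay below both other replicates for 12 of 15 genes and above both for 0. Over all genes tested it lay below both for 5183 of 12428 and above both for 36.4%.

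A second list of hypoxia targets, of other functions, had 29 genes tested. In it 14 were higher, 8 of them DEGs, where 18.8% of all genes tested were higher and 5.20% DEGs higher. ZNF395 was lower (18.0% of all genes tested), and the median log2 fold change was 0.51. Leaving out shRNA_UBC9 replicate 1 gave 12 higher and 3 lower (ZNF395, LOX and CCNG2), with 7 DEGs higher and 2 lower (ZNF395 and LOX). Of all genes tested 17.5% were then higher and 16.1% lower, with 4.86% DEGs higher and 2.64% DEGs lower. STC1, the hormone stanniocalcin 1, stood at 0.0242, 0.0557 and 0.121 RPKM in shRNA_NC and 130, 30.3 and 25.5 RPKM in shRNA_UBC9. ANGPTL4, an inhibitor of lipoprotein lipase, stood at 0.607, 0.872 and 1.69 RPKM in shRNA_NC and 142, 26.9 and 24.3 RPKM in shRNA_UBC9. Both were far above the controls in every shRNA_UBC9 sample and highest in replicate 1. STC1 rose by a log2 fold change of 8.16 (adjusted p = 4.87e-05), or 7.42 without replicate 1, a size that depends on the pseudocount because its controls were near 0. ANGPTL4 rose by 5.40 (adjusted p = 6.02e-04), or 4.58 without replicate 1. VEGFA, the vascular endothelial growth factor, rose by 1.54, PLOD2, a collagen lysyl hydroxylase, by 1.42, and BHLHE40, a transcriptional repressor, by 1.30, with adjusted p of at most 0.0168. Without replicate 1 these values were 1.01, 1.11 and 1.04. LOX, a lysyl oxidase that crosslinks collagen, stood at 5.19, 4.18 and 5.68 RPKM in shRNA_NC and 6.46, 1.96 and 2.22 RPKM in shRNA_UBC9, above the controls in replicate 1 and below them in the others. In this list shRNA_UBC9 replicate 1 lay above both other replicates in 27 of 29 genes (36.4% of all genes tested), with a median departure of 0.52 on the log2 scale.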

How the data were processed

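RNA-seq of T24 cells comprised 3 shRNA_NC and 3 shRNA_UBC9 samples, grouped by the sample labels. After adaptor trimming, the authors aligned the reads to GRCh38 in the CLC Biomedical Genomics Workbench at default settings, and the deposited values are RPKM per gene. Annotation release, strand and the treatment of multi-mapping reads are not given in the sources used here, so levels of genes with near-identical copies and of genes overlapping an antisense gene are uncertain. RPKM does not correct for RNA composition.

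Groups were compared with limma 3.58.1 (R 4.3.3; intensity trend) on log2(RPKM + 0.1), with a pseudocount of 0.1, for 12428 genes with at least 0.5 RPKM in at least 3 of 6 samples, and p-values were adjusted over all of them by the Benjamini-Hochberg method. An exact permutation test of 3 against 3 samples cannot give a p below 0.1. Scripts were tested on simulated data. Every one of the 39 genes is named, with sample values for those called in either fit. Of the pathway lists, up to 6 DEGs with the largest change are named. The level of the targeted gene and 1 DEG of these lists are not reported here. The genes and lists were chosen with earlier results of these data known. The 14 alternatives were pseudocounts of 1 and 0.01, no filter, at least 1 RPKM in every sample, quantile normalization, median scaling, no trend, a replicate block, and leaving out each sample. Python 3.11.15, pandas 2.3.3, numpy 2.4.6 and matplotlib 3.10.9 were used elsewhere.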

Additional observations from a re-analysis of the deposited data

How the results depend on the processing

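PFKM, ALDOA, TPI1, ENO2, SLC16A3 and NDRG1 kept their call under all 14 alternatives. Leaving out 1 sample at a time gave 6 to 17 of the 36 genes higher, 1 to 5 lower and 1 to 6 DEGs higher. By list, the higher genes numbered 4 to 6 among the glycolytic enzymes (1 to 2 lower, 0 to 2 DEGs higher), 1 to 4 among transporters and flux regulators (0 to 1 DEGs), 1 to 6 among other hypoxia targets (0 to 3 lower, 1 to 3 DEGs higher) and 0 to 1 among HIF alpha subunits. The median log2 fold changes ranged from 0.27 to 0.54 over all 36 genes. Without a filter on low values, 7 genes were higher in all (4 glycolytic enzymes, 1 transporter or flux regulator, 1 other hypoxia target), with 1 DEG in all and 0 among transporters and flux regulators. Median scaling left 5 glycolytic enzymes higher. With the replicate block, 8 genes were higher (5 glycolytic enzymes, 1 other hypoxia target and 0 HIF alpha subunits). The replicate numbers gave no sign of pairing. The deviations of same-numbered samples from their group means correlated across genes at -0.37, 0.07 and -0.17. Not every sample's deviations correlated best with those of its own number. With 3 samples per group the deviations depend on one another, so they cannot decide whether same-numbered samples shared a batch. No scaling moved the median of all genes by more than 0.05. Some uncalled fold changes changed sign. PFKL gave -0.031 under quantile normalization, -0.039 under median scaling and -0.14 to 0.11 when 1 sample was left out (-0.14 without shRNA_NC replicate 2, -0.038 without shRNA_UBC9 replicate 3). PGAM1 gave -0.014 under median scaling and -0.0054 (without shRNA_UBC9 replicate 1) to 0.056. With 1 sample left out, LDHA ranged from -0.44 to 0.039 (0.023 without shRNA_UBC9 replicate 2, 0.039 without replicate 3), ADM from -0.81 to 0.032 (without shRNA_UBC9 replicate 3) and AK4 from -0.075 (without shRNA_UBC9 replicate 1) to 0.61. Where a value moved, the cause was not tested. The absolute depth is unknown, which limits genes near 0 RPKM such as CA9.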
